A study of Mus musculus with 12 samples.

Results

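Expression of the Hox genes was followed across 12 arrays of skin-derived precursor (SKP) spheres from mouse skin. Members were all genes named Hoxa, Hoxb, Hoxc or Hoxd plus a number in the array annotation. Each was read from its brightest probe set that carried no other symbol. The annotation held 38 such genes, and 36 had a probe set carrying that symbol alone, out of 22180 genes measured in that way. They comprised 9 genes of the HoxA cluster, 10 of HoxB, 9 of HoxC and 8 of HoxD. Hoxa11 and Hoxd4 lay only on probe sets shared with another gene and are not analysed here.

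SKPs are multipotent cells of the dermis that grow as floating spheres in medium with FGF2 and EGF. The spheres came from mice aged 9 months of the strain labelled CD57/Bl6, and no transgene or deletion was named. The 4 groups were spheres from wounded skin treated with trimebutine maleate (wound trimebutine), from wounded skin treated with alprostadil (wound alprostadil), from wounded skin treated with vehicle (wound vehicle) and from uninjured skin treated with vehicle (uninjured vehicle), with 3 independent isolates each. RNA came from secondary spheres, so the cells had been passaged in culture after isolation. Trimebutine is a gut motility drug that acts on opioid receptors and ion channels, and alprostadil is prostaglandin E1. Drug doses, treatment times and the body site of each skin sample were not given in the sources used here. Differences between wounded and uninjured skin can therefore not be told apart from differences in skin site.

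Hox genes encode homeodomain transcription factors that give cells their position along the body axis and the limb. They lie in 4 clusters, and the order of genes within a cluster follows the order in which they act from head to tail, so that genes of low paralogue number act towards the head and those of high number towards the tail, the limb tip and the genitals. Dermal fibroblasts of adult skin keep a site-specific Hox pattern in culture, and this pattern is commonly read as a record of where in the body the cells came from. Polycomb proteins keep silent Hox genes off, Trithorax proteins keep active ones on, and TALE homeodomain proteins such as Meis and Pbx bind DNA together with Hox proteins.

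The promoters of 4 members described below are printed because 3 of them are neighbours in HoxA with lower signal in every wound group, and 1 is a HoxB gene with higher signal. Sequences are RefSeq's on GRCm38.p6, 250 bases before to 50 bases after the annotated start, in the gene's own direction. Hoxa5 lies at chr6:52204538-52204837, Hoxa6 at chr6:52208623-52208922 and Hoxa7 at chr6:52218524-52218823, all on the minus strand, and Hoxb4 lies at chr11:96318017-96318316 on the plus strand. Capitals mark matches to TTTATG, the core of sites for CDX factors, which activate Hox genes in the embryo.
Hoxa5: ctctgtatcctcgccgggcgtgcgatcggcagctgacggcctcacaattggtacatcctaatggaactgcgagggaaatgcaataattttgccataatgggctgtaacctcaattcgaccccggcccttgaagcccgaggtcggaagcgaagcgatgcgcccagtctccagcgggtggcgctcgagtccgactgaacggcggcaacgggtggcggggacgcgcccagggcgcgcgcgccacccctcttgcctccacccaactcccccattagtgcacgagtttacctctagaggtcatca
Hoxa6: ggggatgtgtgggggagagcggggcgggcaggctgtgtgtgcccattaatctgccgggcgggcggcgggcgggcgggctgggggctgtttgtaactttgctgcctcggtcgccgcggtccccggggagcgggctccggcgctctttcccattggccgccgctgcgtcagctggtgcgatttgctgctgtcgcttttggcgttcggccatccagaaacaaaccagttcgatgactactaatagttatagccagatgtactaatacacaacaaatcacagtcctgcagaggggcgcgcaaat
Hoxa7: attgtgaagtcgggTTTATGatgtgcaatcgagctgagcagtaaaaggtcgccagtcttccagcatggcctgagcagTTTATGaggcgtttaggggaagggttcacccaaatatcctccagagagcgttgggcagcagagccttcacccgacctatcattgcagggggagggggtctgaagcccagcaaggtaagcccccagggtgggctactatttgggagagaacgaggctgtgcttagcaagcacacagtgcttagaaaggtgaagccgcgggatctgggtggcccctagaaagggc
Hoxb4: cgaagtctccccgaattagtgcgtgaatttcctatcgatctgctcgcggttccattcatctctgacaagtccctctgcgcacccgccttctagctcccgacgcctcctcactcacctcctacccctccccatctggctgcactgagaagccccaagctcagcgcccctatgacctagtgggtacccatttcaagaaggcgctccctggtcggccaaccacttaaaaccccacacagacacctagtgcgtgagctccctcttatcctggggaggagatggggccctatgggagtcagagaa
Both strands were searched for TTTATG, for TATAAA and for TGATTNAT, a joint Hox and TALE site. TTTATG occurred at positions 15 and 78 of the Hoxa7 window, counted from its 5′ end, and the other 3 windows held none of the 3 motifs. Over all 32851 RefSeq mouse promoter windows of this length, 11.9% held TTTATG, 13.6% TATAAA and 3.22% TGATTNAT. These matches describe letters only. Promoter sequences were matched for 20 of the 36 members, and Hoxb2, Hoxb3, Hoxb5, Hoxb6, Hoxb7, Hoxc9 and Hoxc10 were not among them.

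The clusters also carry microRNAs that act on Hox messages. The miR-196 family is known to repress Hoxb8, Hoxc8 and Hoxa7, and the miR-196a gene of HoxC (Mir196a-2) lies between Hoxc10 and Hoxc9, the members that passed the test below. The sequences of RefSeq on GRCm38.p6 follow, for Mir196a-2 at chr15:102973365-102973386 on the plus strand and for Mir196b of HoxA at chr6:52230129-52230150 on the minus strand, with the seed (bases 2 to 8) in capitals.
miR-196a-5p: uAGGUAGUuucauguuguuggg
miR-196b-5p: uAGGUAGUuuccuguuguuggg
Both share 1 seed. The array's Mir196a-2 probe set read 4.82 to 5.32 on the log2 scale and stayed below the array median on all 12 arrays. It is annotated to the gene, so no level of the mature microRNA can be taken from it.

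Values are the authors' deposited log2 levels after RMA, and array medians lay between 6.57 and 6.74. A gene below the array median is called dim here, because the deposited table holds no detection p-value. A log2 level also depends on the probes, so levels are compared between arrays for 1 gene and not between genes. Markers of SKPs and dermal fibroblasts matched the label, with 14 of 16 above the median on all 12 arrays, whereas Sox2, a factor of SKPs and the dermal papilla, was dim on all 12. Wound alprostadil replicate 1 stood apart in 14 macrophage and leukocyte markers, whose mean was 10.67 there and 6.33 to 7.53 on the other 11 arrays. The mean of 8 endothelial markers lay between 6.30 and 6.83 in the wound groups and between 6.10 and 6.24 in uninjured vehicle, and 0 of the 3 tested ones passed in limma for the pooled wound groups. Of the 8, Pecam1, Tie1, Emcn and Cldn5 were dim on all 12 arrays. Cdh5, the cadherin of endothelial junctions, was above the median on 11 arrays, with 7.35 to 9.98 in the wound groups and 6.41 to 7.52 in uninjured vehicle. Tek, the angiopoietin receptor, was above it on all 12, with 7.63 to 8.24 in the wound groups and 6.97 to 7.64 in uninjured vehicle. The SKP and dermal fibroblast markers lay lower in the pooled wound groups for 12 of 15 tested, with a median difference of -0.19, and in wound vehicle for 13 of 15, with a median of -0.30, and 0 passed in limma. The part of either list in the Hox differences was not tested. In such whole-sphere RNA, fewer cells of a type and less RNA per cell cannot be told apart.

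Members above the array median on every array lay in paralogue groups 3 to 9, a reading that also depends on the probes. Of the 36 members, 9 were above the array median on all 12 arrays, or 25%, against 50.6% of all genes. These were Hoxa6 in HoxA, Hoxb3, Hoxb4, Hoxb5 and Hoxb9 in HoxB, Hoxc4, Hoxc6 and Hoxc8 in HoxC, and Hoxd8 in HoxD. A further 12 were above it on 3 to 11 arrays, so that 21 members, or 58.3%, entered the tests, against 59.3% of all genes. Hoxc5 and Hoxd9 were above it on 1 array each.

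The 13 members that were dim on all 12 arrays lay in paralogue groups 1 to 3 and 8 to 13. They were Hoxa2, Hoxa3, Hoxa9 and Hoxa10, Hoxb1, Hoxb8 and Hoxb13, Hoxc11 and Hoxc12, and Hoxd1, Hoxd11, Hoxd12 and Hoxd13. The tail and distal limb genes of paralogue groups 11 and 12 thus gave 0 measured members above the median. In group 13, which patterns digits, genitals and hindgut, Hoxa13 and Hoxc13 exceeded it on 4 arrays each, while Hoxb13 and Hoxd13 did so on 0. A probe set shared by Hoxa3 and 5730446D14Rik, not used here, read 7.04 to 7.33, above the median on all 12 arrays. Hoxa3 is thus dim only by the probe set of its symbol alone. The map of arrays above the median by cluster and paralogue number shows the genes above it on all 12 arrays at groups 3 to 9.

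**Figure D1:**
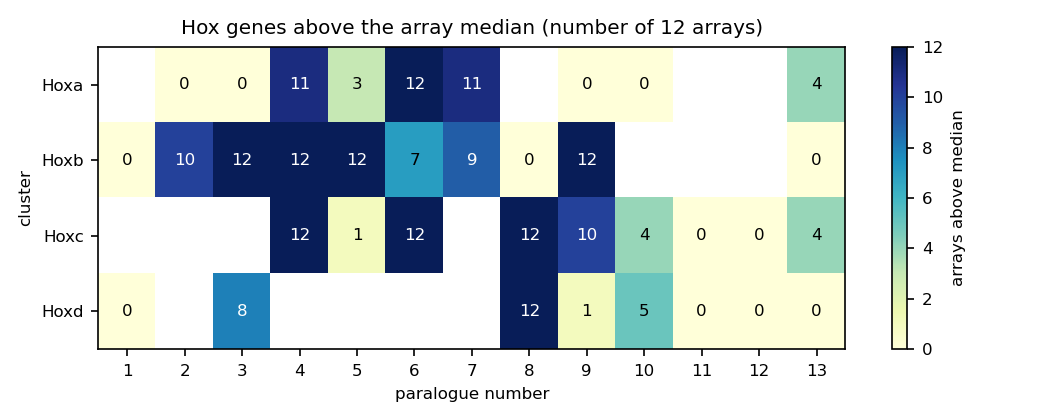
Each cell gives the number of the 12 arrays (0 to 12) on which a Hox gene lay above the array median, with the 4 clusters as rows and the paralogue number 1 to 13 as columns; blank cells have no gene measured alone. Hoxa6, Hoxb3, Hoxb4, Hoxb5, Hoxb9, Hoxc4, Hoxc6, Hoxc8 and Hoxd8 reached 12 arrays, and 13 genes reached 0.

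The probe sets of highest and lowest mean signal in each cluster are given array by array, without an order of the genes, since signal also depends on the probes. In HoxA, Hoxa6, a gene of the trunk and ribs, read 7.85, 7.99 and 7.90 in wound trimebutine, 7.98, 7.85 and 8.08 in wound alprostadil and 7.89, 7.98 and 7.47 in wound vehicle, against 8.54, 8.50 and 8.29 in uninjured vehicle. The 3 uninjured arrays lay above all 9 wound arrays. Hoxa10, a gene of the lower trunk, limb and uterus, read 5.65, 5.51 and 5.34 in wound trimebutine, 5.89, 5.45 and 5.44 in wound alprostadil and 5.52, 5.35 and 5.47 in wound vehicle, against 5.79, 5.58 and 5.46 in uninjured vehicle, and its groups overlapped. In HoxB, Hoxb3, a gene of hindbrain and neck, is described below. Hoxb8, a trunk gene, read 5.47, 5.13 and 5.29 in wound trimebutine, 5.21, 4.94 and 5.45 in wound alprostadil and 5.38, 5.24 and 5.64 in wound vehicle, against 5.02, 4.89 and 5.35 in uninjured vehicle, also with overlap.

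In HoxC, Hoxc6, a gene of the thorax and of mammary and hair skin, read 10.52, 10.67 and 10.58 in wound trimebutine, 10.08, 10.33 and 10.34 in wound alprostadil and 10.08, 10.25 and 10.45 in wound vehicle, against 10.55, 10.57 and 10.09 in uninjured vehicle. All groups overlapped apart from wound trimebutine and wound vehicle, and from wound trimebutine and wound alprostadil. Hoxc11, a lumbar and hindlimb gene, read 5.62, 5.52 and 5.45 in wound trimebutine, 5.35, 5.46 and 5.37 in wound alprostadil and 5.44, 5.62 and 5.60 in wound vehicle, against 5.49, 5.40 and 5.42 in uninjured vehicle, with no separation from uninjured vehicle. In HoxD, Hoxd8, a gene of the trunk, read 9.48, 9.54 and 9.49 in wound trimebutine, 8.90, 9.36 and 9.42 in wound alprostadil and 9.19, 9.22 and 9.33 in wound vehicle, against 9.48, 9.63 and 9.17 in uninjured vehicle. Its 3 wound trimebutine arrays lay between 9.48 and 9.54 and above all other wound arrays. Hoxd11, a gene of forearm and wrist, read 5.56, 5.26 and 5.51 in wound trimebutine, 5.50, 5.50 and 5.44 in wound alprostadil and 5.58, 5.50 and 5.52 in wound vehicle, against 5.51, 5.42 and 5.51 in uninjured vehicle, and the wound arrays overlapped with the uninjured ones.

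The first question was whether Hox expression differed between spheres of wounded and of uninjured skin. With the 3 wound groups pooled, Hoxc9 and Hoxc10 fell in the wound groups. Hoxa5, Hoxa6 and Hoxa7 had lower signal and Hoxb2, Hoxb3 and Hoxb4 higher signal in the wound groups without passing the threshold. Limma called 2 of 21 tested members at an adjusted p under 0.05, both lower, where 0.243% of the 13153 tested genes were called and 0.144% were called lower. At an unadjusted p under 0.05 there were 9 of 21 members, against 10.3% of tested genes. The uninjured arrays are shared by every comparison with uninjured vehicle.

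Hoxc9 is a gene of the thoracic to lumbar trunk. It read 7.40, 6.87 and 7.18 in wound trimebutine, 6.92, 6.64 and 6.88 in wound alprostadil and 6.68, 6.80 and 6.98 in wound vehicle, against 7.90, 7.80 and 7.72 in uninjured vehicle. All 9 wound arrays lay below the 3 uninjured arrays, with wound trimebutine replicate 1 nearest to them. The mean was 6.93 ± 0.24 (SD, n = 9) in the wound groups and 7.81 ± 0.09 (SD, n = 3) in uninjured vehicle. The difference was -0.88 ± 0.11 (SE) on the log2 scale, a fold of 0.545 (limma adjusted p = 0.0248). Without the filter on dim genes the adjusted p was 0.0309 over 22180 genes.

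Hoxc10 is a lumbar and hindlimb gene that lies next to Hoxc9. It read 6.74, 6.42 and 6.53 in wound trimebutine, 6.36, 6.38 and 6.61 in wound alprostadil and 6.44, 6.31 and 6.40 in wound vehicle, against 7.67, 7.36 and 6.99 in uninjured vehicle. Again all 9 wound arrays lay below the 3 uninjured arrays. Hoxc10 averaged 6.46 ± 0.14 (SD, n = 9) in the wound groups and 7.34 ± 0.34 (SD, n = 3) in uninjured vehicle. The difference was -0.88 ± 0.13 (SE), a fold of 0.545 (limma adjusted p = 0.0296). In the wound groups Hoxc10 was dim on all arrays but wound trimebutine replicate 1, so its difference is set against dim values. It entered the test through the uninjured arrays, and without the filter its adjusted p was 0.0347.

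Both calls were lost when some single arrays were left out. Hoxc9 no longer passed without wound trimebutine replicate 3 (adjusted p = 0.0668), wound vehicle replicate 1 (0.0518), uninjured vehicle replicate 1 (0.157) or uninjured vehicle replicate 2 (0.181), while its difference stayed between -0.92 and -0.83 over all 12 omissions. Hoxc10 no longer passed without wound trimebutine replicates 2 or 3 (adjusted p of 0.0769 and 0.0807), wound alprostadil replicates 1 or 2 (0.0655 and 0.0703), wound vehicle replicates 1, 2 or 3 (0.0749, 0.0545 and 0.0551) or uninjured vehicle replicates 1 or 2 (0.157 and 0.229). Its difference was -0.71 without uninjured vehicle replicate 1 and -1.05 without uninjured vehicle replicate 3. Without the 3 arrays of lowest median (replicate 1 of wound alprostadil, wound trimebutine and uninjured vehicle) the differences were -0.89 for Hoxc9 and -0.73 for Hoxc10, each at an adjusted p of 0.139. After median centring of the arrays, Hoxc10 had an adjusted p of 0.0517 and Hoxc9 of 0.0447. The macrophage marker array is among these 3, and without it alone Hoxc9 differed by -0.89 (adjusted p = 0.0436).

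**Figure D2:**
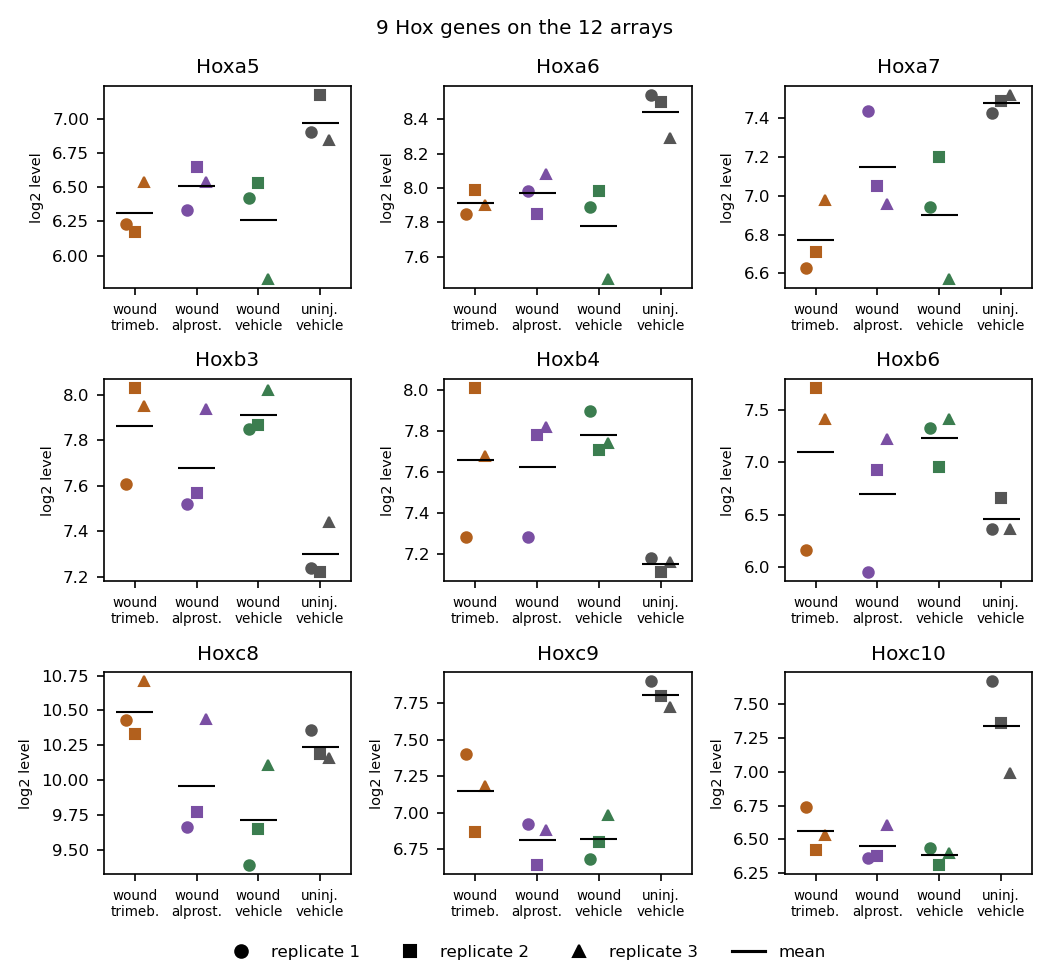
Points give the log2 level of 9 Hox genes on each of the 12 arrays, by group from left to right (wound trimebutine, wound alprostadil, wound vehicle, uninjured vehicle), with the symbol marking the replicate and the line the mean of 3 arrays; the vertical axis is fitted to each gene. Hoxc9, Hoxc10, Hoxa5 and Hoxa6 lie lower on all 9 wound arrays, Hoxb3 and Hoxb4 lie higher, and Hoxb6 spreads widely among wound arrays, between 5.95 and 7.71.

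In HoxA, all 9 measured members were below 0 in the wound groups, with a median difference of -0.22 against 0.008 over all genes, and the same 9 of 9 were below 0 after median centring and after cyclic loess. Of these, Hoxa2, Hoxa3, Hoxa9 and Hoxa10 were dim on all 12 arrays and not tested, and Hoxa3 averaged 5.87 in the wound groups and 5.90 in uninjured vehicle. The 5 tested members were all below 0, with a median of -0.54. None passed in limma. The differences were largest in the neighbours Hoxa5, Hoxa6 and Hoxa7. Hoxa5, a gene of lung, neck and upper trunk, read 6.23, 6.17 and 6.54 in wound trimebutine, 6.33, 6.65 and 6.54 in wound alprostadil and 6.42, 6.53 and 5.83 in wound vehicle, against 6.90, 7.17 and 6.84 in uninjured vehicle. The wound and uninjured arrays did not overlap, and only the 3 uninjured arrays exceeded the array median, so that Hoxa5 entered the test through them. It averaged 6.36 ± 0.25 (SD, n = 9) in the wound groups and 6.97 ± 0.17 (SD, n = 3) in uninjured vehicle, a difference of -0.61 ± 0.15 (SE, limma adjusted p = 0.179).

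Hoxa6 differed by -0.55 ± 0.11 (SE), with means of 7.89 ± 0.18 (SD, n = 9) in the wound groups and 8.44 ± 0.14 (SD, n = 3) in uninjured vehicle (limma adjusted p = 0.0893). Wound vehicle replicate 3, at 7.47, was its lowest array. Hoxa7, a gene of the thoracic trunk, read 6.63, 6.71 and 6.98 in wound trimebutine, 7.44, 7.05 and 6.96 in wound alprostadil and 6.94, 7.20 and 6.57 in wound vehicle, against 7.43, 7.49 and 7.52 in uninjured vehicle. Wound alprostadil replicate 1 reached the lowest uninjured array, at 7.44 against 7.43, and the other 8 wound arrays lay below all 3. The difference was -0.54 ± 0.14 (SE, limma adjusted p = 0.179).

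Hoxa4, a gene of the neck, read 6.83, 6.82 and 6.90 in wound trimebutine, 7.01, 7.28 and 6.95 in wound alprostadil and 6.97, 6.98 and 6.67 in wound vehicle, against 7.22, 6.98 and 7.25 in uninjured vehicle. Its wound and uninjured arrays overlapped, and the difference was -0.22 ± 0.10 (SE, limma adjusted p = 0.49). Hoxa13, a gene of digits and genitals, read 6.86, 6.49 and 6.47 in wound trimebutine, 6.38, 6.49 and 6.54 in wound alprostadil and 6.72, 6.76 and 6.66 in wound vehicle, against 6.67, 6.77 and 6.49 in uninjured vehicle. Its groups overlapped too, with a difference of -0.05 ± 0.09.

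In HoxB, 7 of 10 members were above 0 in the wound groups, with a median of 0.40, and the count was again 7 of 10 after median centring and after cyclic loess. None passed in limma. The members above 0 were Hoxb2 to Hoxb8, of which Hoxb8 was dim on all 12 arrays and not tested. Hoxb2, a hindbrain gene, read 7.17, 6.97 and 7.09 in wound trimebutine, 6.99, 6.91 and 7.17 in wound alprostadil and 6.99, 7.01 and 7.10 in wound vehicle, against 6.83, 6.61 and 6.54 in uninjured vehicle. All 9 wound arrays lay above the 3 uninjured arrays, with nearest values of 6.91 and 6.83. The difference was 0.38 ± 0.08 (SE, limma adjusted p = 0.122). Hoxb2 was above the array median on all 9 wound arrays but on only 1 of the 3 uninjured arrays.

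Hoxb3 read 7.61, 8.03 and 7.95 in wound trimebutine, 7.52, 7.57 and 7.94 in wound alprostadil and 7.85, 7.87 and 8.02 in wound vehicle, against 7.24, 7.22 and 7.44 in uninjured vehicle. All wound arrays lay above the uninjured arrays, and the difference was 0.52 ± 0.11 (SE, limma adjusted p = 0.126). A probe set annotated to both Hoxb3 and Hoxb2, not used here, did not separate the groups. It read 6.34 to 6.84 in the wound groups and 6.49 to 6.71 in uninjured vehicle. Hoxb4, a gene of the neck and of blood stem cells, read 7.28, 8.01 and 7.68 in wound trimebutine, 7.28, 7.78 and 7.82 in wound alprostadil and 7.90, 7.71 and 7.74 in wound vehicle, against 7.18, 7.11 and 7.16 in uninjured vehicle. Its wound arrays also lay above all 3 uninjured arrays, with replicate 1 of wound trimebutine and of wound alprostadil nearest to them, both at 7.28. Hoxb4 averaged 7.69 ± 0.25 (SD, n = 9) in the wound groups and 7.15 ± 0.03 (SD, n = 3) in uninjured vehicle. The difference was 0.54 ± 0.15 (SE, limma adjusted p = 0.22).

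Hoxb5, Hoxb6 and Hoxb7, genes of the lower neck and upper trunk, had higher means in the wound groups but overlapped with uninjured vehicle. Hoxb5 read 7.07, 7.87 and 7.77 in wound trimebutine, 6.78, 7.45 and 7.84 in wound alprostadil and 7.90, 7.45 and 7.97 in wound vehicle, against 6.91, 6.92 and 6.97 in uninjured vehicle. Only wound alprostadil replicate 1 lay below the uninjured arrays. The difference was 0.63 ± 0.23 (SE, limma adjusted p = 0.346). A 2nd Hoxb5 probe set did not show it, with 6.80 to 7.32 in the wound groups and 7.05 to 7.08 in uninjured vehicle and a difference of -0.05.

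Hoxb6 read 6.16, 7.71 and 7.42 in wound trimebutine, 5.95, 6.93 and 7.22 in wound alprostadil and 7.33, 6.96 and 7.42 in wound vehicle, against 6.36, 6.66 and 6.36 in uninjured vehicle. Its wound arrays spread from 5.95 to 7.71, and replicate 1 of wound trimebutine and of wound alprostadil lay below all 3 uninjured arrays. The difference was 0.55 ± 0.33 (SE, limma adjusted p = 0.63), and the residual SD of 0.55 stood at the 94th percentile of the tested genes. Hoxb6 was dim on all 3 uninjured arrays and entered the test through the wound arrays, so its difference is set against dim values. Hoxb7 differed by 0.42 ± 0.23 (limma adjusted p = 0.595), with 6.35 to 7.62 in the wound groups and 6.37 to 6.84 in uninjured vehicle.

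The same 2 wound arrays, replicate 1 of wound trimebutine and of wound alprostadil, were the lowest of the 9 for Hoxb4, Hoxb5, Hoxb6, Hoxb7 and Hoxb9. Both were also among the 3 arrays of lowest median, and that of wound alprostadil is the array with high macrophage markers. Their part in the HoxB values was not tested beyond leaving them out. In the fit without the 3 arrays of lowest median, Hoxb6 differed by 0.79 ± 0.16, Hoxb5 by 0.80 ± 0.16 and Hoxb4 by 0.67 ± 0.10 (SE, limma adjusted p of 0.231, 0.209 and 0.139).

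**Figure D3:**
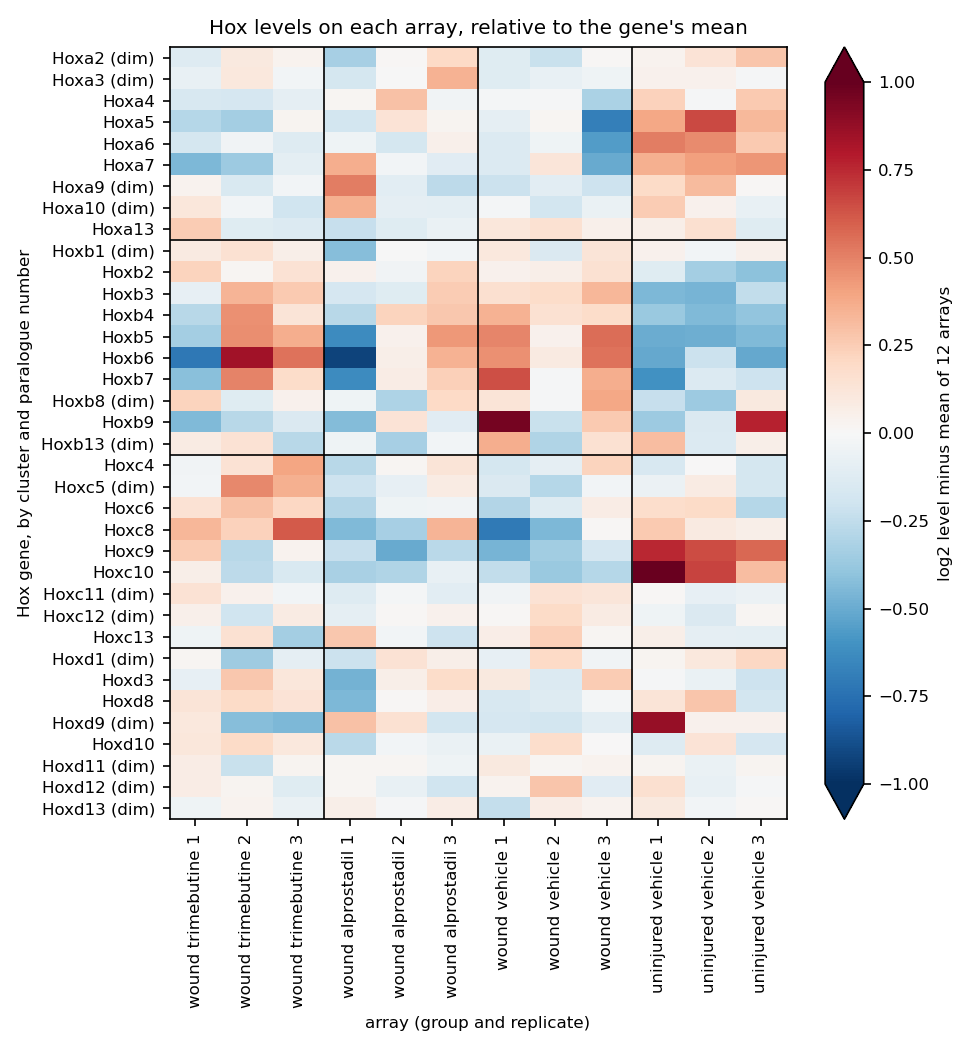
Colour gives the log2 level of each of the 36 Hox genes minus its mean over the 12 arrays, with red above and blue below and the scale ending at 1 on each side; genes run down by cluster and paralogue number, and those marked dim were not tested. Arrays run by group from left to right, and the uninjured vehicle columns show Hoxa5, Hoxa6, Hoxa7, Hoxc9 and Hoxc10 in red and Hoxb2 to Hoxb6 in blue.

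The opposite trends of HoxA and HoxB can be read within an array, where shifts between arrays cancel. The mean of the 10 HoxB members minus the mean of the 9 HoxA members was 0.18, 0.60 and 0.44 in wound trimebutine, -0.14, 0.23 and 0.42 in wound alprostadil and 0.69, 0.27 and 0.81 in wound vehicle, against -0.27, -0.28 and -0.03 in uninjured vehicle. Wound alprostadil replicate 1 lay within the uninjured range, and the other 8 wound arrays lay above it. This score is a description of chosen members, dim ones included, and was not tested.

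HoxC and HoxD had no common direction. In HoxC, 5 of 9 members were above 0, with a median of 0.06, and in HoxD 3 of 8, with a median of -0.04, where median centring gave 2 of 8. Hoxc8, a thoracic gene, differed by -0.18 ± 0.18, Hoxc4, a gene of the neck, by 0.15 ± 0.12, Hoxc6 by -0.04 ± 0.12 and Hoxc13, a gene of hair and nail, by 0.06 ± 0.12 (SE, limma adjusted p of 0.798, 0.758, 0.947 and 0.911). Hoxd3, Hoxd8 and Hoxd10 differed by 0.13 ± 0.14, -0.10 ± 0.12 and 0.07 ± 0.09 (limma adjusted p of 0.821, 0.834 and 0.845). Over all 36 members, 7 had wound arrays without overlap with uninjured arrays, or 19.4%, against 2.08% of the 22180 genes. The 3 on the higher side, where 1.01% of all genes stood, were Hoxb2, Hoxb3 and Hoxb4. The 4 on the lower side, where 1.07% stood, were Hoxa5, Hoxa6, Hoxc9 and Hoxc10.

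By paralogue number, members of groups 2 to 8, 10, 12 and 13 lay on both sides of 0. Those of groups 1, 9 and 11 lay on 1 side, where groups 1 and 11 held 2 dim members each. In group 6, Hoxb6 differed by 0.55, Hoxc6 by -0.04 and Hoxa6 by -0.55. In group 7, Hoxb7 differed by 0.42 and Hoxa7 by -0.54. In group 9, all 4 members were below 0, with Hoxc9 at -0.88, the dim Hoxd9 at -0.43, the dim Hoxa9 at -0.23 and Hoxb9 at -0.12. The Hoxb9 difference lay between -0.34 and 0.22 when 1 array was left out, so its sign was not stable. In group 10, Hoxc10 differed by -0.88, the dim Hoxa10 by -0.10 and Hoxd10 by 0.07.

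**Figure D4:**
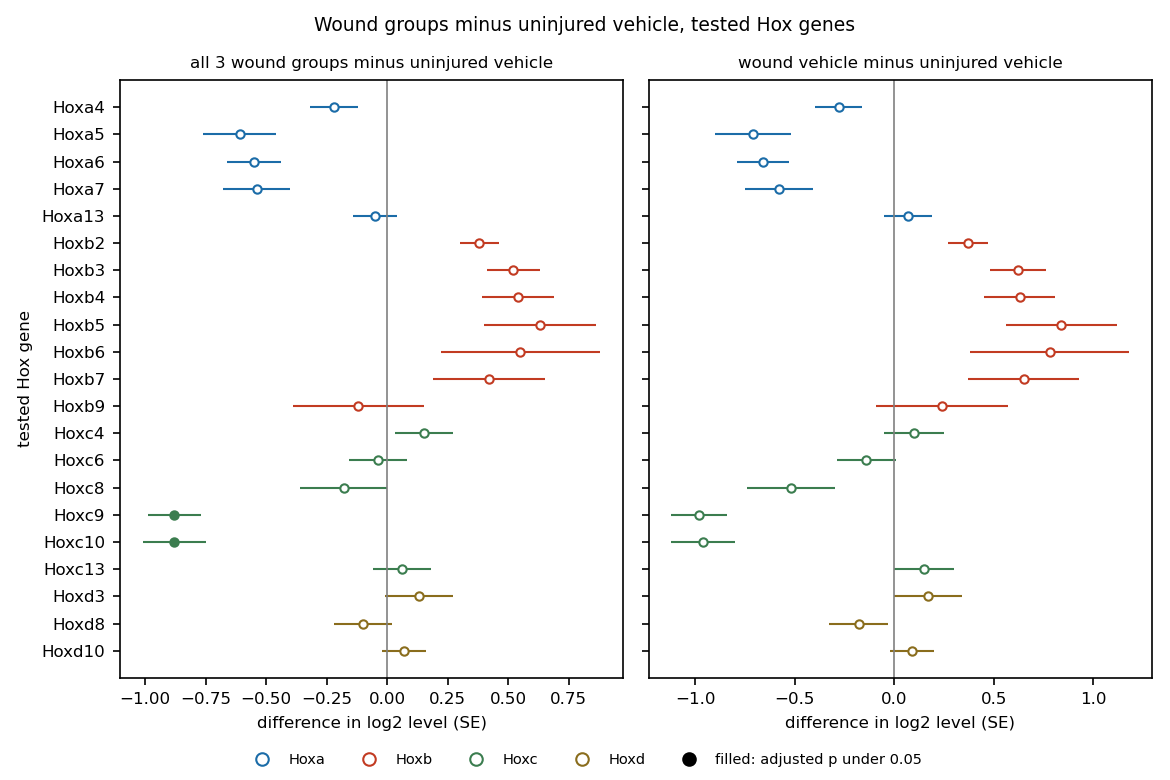
Circles give the difference in log2 level for the 21 tested Hox genes with the SE as bars, for all 3 wound groups minus uninjured vehicle on the left and for wound vehicle minus uninjured vehicle on the right; colour marks the cluster and filled circles an adjusted p under 0.05. Filled are Hoxc9 and Hoxc10 on the left, both at -0.88, and Hoxa4 to Hoxa7 lie left of 0 in both panels where Hoxb2 to Hoxb7 lie right of it.

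Wound vehicle against uninjured vehicle asks about injury without a drug. Limma called 0 of 21 tested members, where 0.0456% of tested genes were called, and 12 had an unadjusted p under 0.05, against 13% of tested genes. Hoxc9 differed by -0.98 ± 0.14 and Hoxc10 by -0.96 ± 0.16 (SE, limma adjusted p of 0.0539 and 0.0733). Hoxc9 passed without wound trimebutine replicate 1 (limma adjusted p = 0.0436), wound alprostadil replicate 2 (0.0477) or wound alprostadil replicate 3 (0.0467). The filter was kept from all 12 arrays, so leaving these arrays out changed this comparison only through the shared spread. Hoxc10 passed without uninjured vehicle replicate 3 (limma adjusted p = 0.0203). Next on the lower side was Hoxa6 at -0.66 ± 0.13 (limma adjusted p = 0.118), and on the higher side stood Hoxb3 at 0.62 ± 0.14, Hoxb2 at 0.37 ± 0.10 and Hoxb4 at 0.63 ± 0.18 (limma adjusted p of 0.168, 0.205 and 0.218). Of the 36 members, 17 had groups without overlap, 6 higher and 11 lower, or 47.2%, against 16.2% of all genes. The 6 higher ones, against 8.61% of all genes, were Hoxb2 to Hoxb7. The 11 lower ones, against 7.63% and taken before rounding, were Hoxa2 to Hoxa7, Hoxa9, Hoxc8, Hoxc9, Hoxc10 and Hoxd9. Of these, Hoxa2, Hoxa3, Hoxa9 and Hoxd9 were too dim to be tested. The nearest arrays of the 2 groups read 5.832 and 5.856 for Hoxa3, and both read 6.979 for Hoxa4. Hoxc8 read 9.39, 9.65 and 10.11 in wound vehicle, against 10.36, 10.19 and 10.16 in uninjured vehicle, a difference of -0.52 ± 0.22 (limma adjusted p = 0.369).

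Wound trimebutine against uninjured vehicle gave 0 of 21 calls in limma, where 0.198% of tested genes were called, and 10 members had an unadjusted p under 0.05, against 7.13%. Hoxc10 differed by -0.78 ± 0.16, Hoxc9 by -0.66 ± 0.14 and Hoxa7 by -0.71 ± 0.17 (SE, limma adjusted p of 0.151, 0.169 and 0.244). Hoxb2 differed by 0.42 ± 0.10, Hoxb3 by 0.56 ± 0.14 and Hoxb4 by 0.51 ± 0.18 (limma adjusted p of 0.253, 0.253 and 0.549). Groups did not overlap in 12 of 36 members, or 33.3%, against 12.4% of all genes. The 5 higher ones were Hoxb1 to Hoxb5, against 6.21% of all genes, and the 7 lower ones were Hoxa4 to Hoxa7, Hoxc9, Hoxc10 and Hoxd1, against 6.22%. Of these, Hoxb1 and Hoxd1 were dim on all 12 arrays and not tested. Hoxc8 overlapped here, with 10.43, 10.33 and 10.71 in wound trimebutine, against 10.36, 10.19 and 10.16 in uninjured vehicle.

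Wound alprostadil against uninjured vehicle gave 0 of 21 calls in limma, where 0% of tested genes were called, and 7 members had an unadjusted p under 0.05, against 7.25%. Hoxc9 differed by -0.99 ± 0.14, Hoxc10 by -0.89 ± 0.16 and Hoxa6 by -0.47 ± 0.13 (SE, limma adjusted p of 0.111, 0.259 and 0.552). Without uninjured vehicle replicate 3, Hoxc10 passed (adjusted p = 0.0286). Hoxb2 differed by 0.36 ± 0.10, Hoxb3 by 0.38 ± 0.14 and Hoxb4 by 0.48 ± 0.18 (limma adjusted p of 0.538, 0.647 and 0.651). Groups did not overlap in 7 of 36 members, or 19.4%, against 10.2% of all genes. They were Hoxb2, Hoxb3 and Hoxb4 on the higher side, against 4.64% of all genes, and Hoxa5, Hoxa6, Hoxc9 and Hoxc10 on the lower, against 5.55%.

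The F test over the 4 groups called 0 of 21 members in limma, where 0.0152% of tested genes were called, and 9 had an unadjusted p under 0.05, against 7.89%. Hoxc9 had the smallest p (F = 21.9, limma adjusted p = 0.13), followed by Hoxc10 (F = 15.8, limma adjusted p = 0.163).

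The remaining comparisons ask whether Hox expression differed between drugs and vehicle in wounded skin. For wound trimebutine against wound vehicle, Hoxc6 and Hoxc8 had higher signal on every trimebutine array than on any vehicle array, and neither passed. Groups without overlap made up 11.1% of the 36 members, against 14.7% of all genes and 6.73% on the higher side. Limma called 0 of 21 members and 0% of tested genes, and 3 members had an unadjusted p under 0.05, against 9.43%. Hoxc8 read 10.43, 10.33 and 10.71 in wound trimebutine, against 9.39, 9.65 and 10.11 in wound vehicle, with no overlap. The difference was 0.78 ± 0.22 (SE), a fold of 1.71 (limma adjusted p = 0.528). The mean of 16 SKP and dermal fibroblast markers lay at 11.30 to 11.33 in wound trimebutine and 10.76 to 11.34 in wound vehicle, and its part in the Hoxc8 value was not tested. Hoxc6 differed by 0.33 ± 0.15 without overlap, and Hoxc9 by 0.33 ± 0.14 with overlap (limma adjusted p of 0.53 and 0.528).

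On the lower side of this comparison stood Hoxb9, a gene of the thoracic trunk, which read 6.69, 6.85 and 6.99 in wound trimebutine, against 8.09, 6.91 and 7.39 in wound vehicle. Its difference of -0.62 ± 0.33 (limma adjusted p = 0.552) was -0.30 without wound vehicle replicate 1, the highest array, and -0.89 without wound vehicle replicate 2. Hoxc13 read 6.60, 6.79 and 6.30 in wound trimebutine, against 6.71, 6.88 and 6.66 in wound vehicle, and differed by -0.18 ± 0.15. Hoxa13 read 6.86, 6.49 and 6.47 in wound trimebutine, against 6.72, 6.76 and 6.66 in wound vehicle, and differed by -0.11 ± 0.12. Both overlapped between groups. In HoxC 6 of 9 members were above 0, with a median of 0.18, and 7 of 9 after median centring or cyclic loess, while in HoxB 8 of 10 were below 0, with a median of -0.12, and 7 of 10 after median centring. Groups did not overlap in 4 of 36 members, or 11.1%, against 14.7% of all genes, and these were Hoxc5, Hoxc6, Hoxc8 and Hoxd8, all higher with trimebutine, where 6.73% of all genes stood. For Hoxc5, which was too dim to be tested, the nearest arrays read 6.251 in wound trimebutine and 6.245 in wound vehicle.

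**Figure D5:**
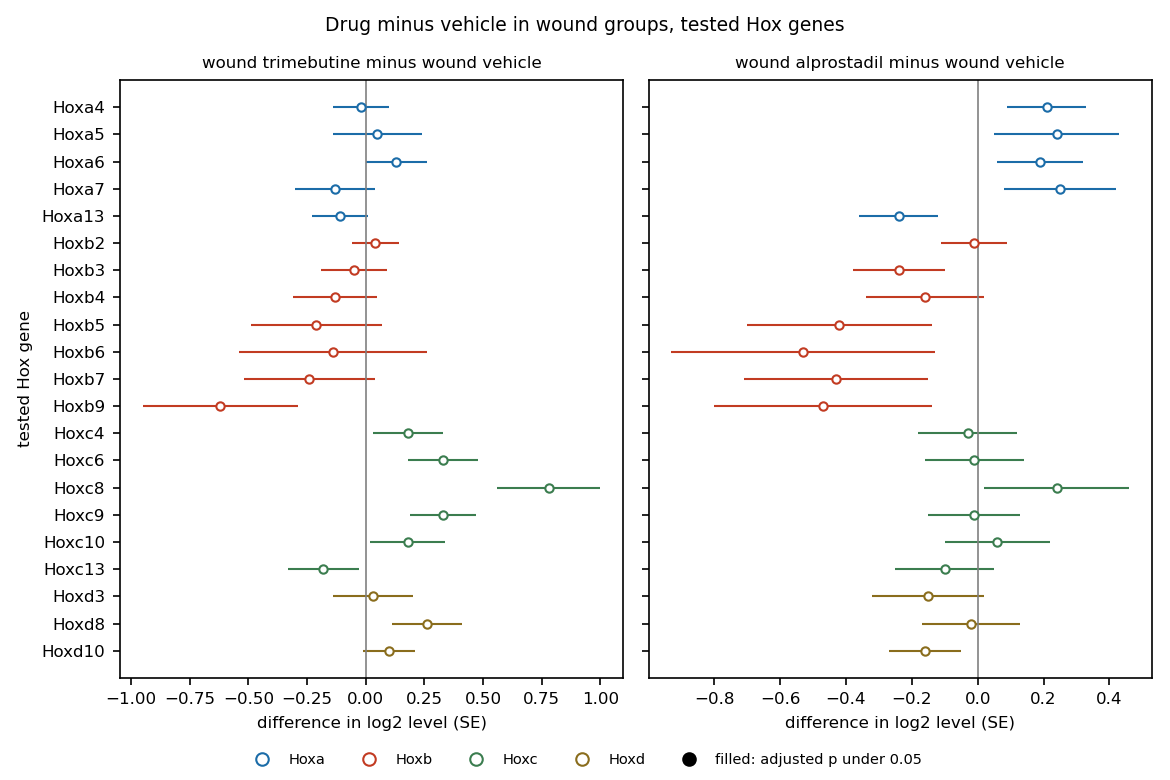
Circles give the difference in log2 level for the 21 tested Hox genes with the SE as bars, for wound trimebutine minus wound vehicle on the left and wound alprostadil minus wound vehicle on the right; colour marks the cluster, and the horizontal scales differ. No circle is filled, since no gene passed; the largest difference on the left is Hoxc8 at 0.78, and on the right the 7 tested HoxB genes lie at or below -0.01.

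For wound alprostadil against wound vehicle, limma called 0 of 21 members and 0% of tested genes, and 0 members had an unadjusted p under 0.05, against 2.75% of tested genes. All 10 HoxB members were below 0, with a median of -0.23, and 9 of 10 after median centring or cyclic loess. In HoxA 8 of 9 were above 0, with a median of 0.19, and the count was the same after median centring and cyclic loess, with medians of 0.25 and 0.23. Hoxa4 differed by 0.21 ± 0.12, Hoxa7 by 0.25 ± 0.17 and Hoxa6 by 0.19 ± 0.13, while Hoxa13 differed by -0.24 ± 0.12, Hoxb3 by -0.24 ± 0.14 and Hoxb5 by -0.42 ± 0.28 (SE, limma adjusted p of 0.998 each). Hoxb5 differed by -0.13 without wound alprostadil replicate 1, the macrophage marker array. Hoxc9 differed by -0.01 ± 0.14, and this sign turned under 5 alternatives. Groups did not overlap in 1 of 36 members, Hoxa13 on the lower side, or 2.78%, against 8.85% of all genes. Of all genes, 6.28% stood on the lower side and 2.57% on the higher. Hoxa13 was above the array median on 0 wound alprostadil arrays and 1 wound vehicle array, so most values compared were dim.

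For wound trimebutine against wound alprostadil, limma called 0 of 21 members and 0% of tested genes, and 4 members had an unadjusted p under 0.05, against 4.42%. Hoxd10, a hindlimb gene, read 6.75, 6.83 and 6.74 in wound trimebutine, against 6.37, 6.61 and 6.57 in wound alprostadil, with no overlap and a difference of 0.26 ± 0.11 (limma adjusted p = 0.752). It was above the array median on 3 wound trimebutine arrays, 0 wound alprostadil arrays and 1 array in each other group. Its difference is thus set against dim values. Hoxc8 differed by 0.53 ± 0.22, Hoxc9 by 0.33 ± 0.14 and Hoxc6 by 0.34 ± 0.15, and on the lower side stood Hoxa7 at -0.38 ± 0.17, Hoxa4 at -0.23 ± 0.12 and Hoxa5 at -0.19 ± 0.19 (SE). Hoxa4 read 6.83, 6.82 and 6.90 in wound trimebutine, against 7.01, 7.28 and 6.95 in wound alprostadil, with no overlap. Groups did not overlap in 5 of 36 members, or 13.9%, against 10.7% of all genes. The 4 higher ones were Hoxb1, Hoxc6, Hoxd8 and Hoxd10, against 5.55% of all genes, and the 1 lower one was Hoxa4, against 5.17%.

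Genes that regulate Hox clusters or act with Hox proteins were read from the same fit, and 0 of them passed for the wound groups together against uninjured vehicle. Of 9 TALE cofactors, 8 were measured and tested, with 5 above 0 and a median difference of 0.03. Meis2 differed by 0.23 ± 0.09, Meis1 by 0.29 ± 0.17, Meis3 by -0.16 ± 0.10 and Pbx4 by -0.02 ± 0.10 (SE, limma adjusted p of 0.393, 0.612, 0.667 and 0.969). Of 25 tested Polycomb genes 19 were above 0, or 17 after median centring or cyclic loess, and the median was 0.03, with Pcgf2 at 0.17 ± 0.07 and Ezh1, a histone H3K27 methyltransferase, at 0.24 ± 0.10 on the higher side (limma adjusted p of 0.413 and 0.445). Pcgf1 at -0.07 ± 0.09 and Bmi1 at -0.08 ± 0.10 stood on the lower side (limma adjusted p of 0.837 and 0.849).

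All 10 tested Trithorax and H3K27 demethylase genes were above 0 in the wound groups, with a median of 0.18, and the count was 10 of 10 after median centring and cyclic loess too. Kdm6b, an H3K27 demethylase, differed by 0.25 ± 0.09 and Wdr5, a core subunit of H3K4 methyltransferases, by 0.21 ± 0.08 (SE, limma adjusted p of 0.372 and 0.404). Of the upstream regulators, Cdx1, Cdx2 and Cdx4 were dim on all 12 arrays. The 4 tested ones were below 0, under all 3 scalings, led by Zbtb16, a zinc finger repressor of limb patterning, at -0.83 ± 0.32 and Gli3, a hedgehog pathway factor, at -0.41 ± 0.18 (limma adjusted p of 0.402 and 0.463). Hotair, the long non-coding RNA of HoxC, was dim on all 12 arrays, and the 2 tested non-coding transcripts, Hoxd3os1 and Hoxaas3, differed by -0.13 ± 0.08 and -0.01 ± 0.08.

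The genes that flank the clusters stayed close to 0. Of 15 tested flanking genes 0 passed in limma, with a median of 0.01 and 8 above 0, or 6 after median centring or cyclic loess. Atp5g2 and Calcoco1 beside HoxC differed by 0.12 ± 0.06 and 0.17 ± 0.08, and Hibadh beside HoxA by -0.14 ± 0.07 (SE, limma adjusted p of 0.56, 0.527 and 0.509).

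Among other markers of body position, limma called 2 of 8 tested genes for the pooled wound groups, where 0.243% of the 13153 tested genes were called. The list was chosen with earlier results of these data known, and no fit with arrays left out is given here for these 2 genes. Tbx5, which specifies the forelimb and the heart, read 8.47, 8.24 and 8.22 in wound trimebutine, 7.36, 7.88 and 7.0 in wound alprostadil and 8.23, 7.47 and 8.61 in wound vehicle, against 6.48, 6.0 and 6.53 in uninjured vehicle. All wound arrays lay above the uninjured arrays, and the difference was 1.60 ± 0.24 (SE, limma adjusted p = 0.0323). Tbx5 was dim on the 3 uninjured arrays and entered the test through the wound arrays, so its difference is set against dim values, and without the filter its adjusted p was 0.0349. Zic1, a zinc finger factor of dorsal trunk dermis, read 9.22, 8.60 and 8.65 in wound trimebutine, 9.32, 9.66 and 10.30 in wound alprostadil and 9.50, 9.67 and 8.89 in wound vehicle, against 10.61, 10.61 and 10.92 in uninjured vehicle. All wound arrays lay below the uninjured arrays, and the difference was -1.40 ± 0.23 (SE, limma adjusted p = 0.0465). Without the filter on dim genes Zic1 had an adjusted p of 0.051. Such genes, like Hox genes, are known to differ between skin sites in dermal cells. The part of skin site in the Hox differences was not tested, since the sources used here give no site.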

How the data were processed

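RNA from 12 cultures of SKP spheres was measured on Mouse Gene 2.0 ST arrays. The deposited values are log2 signals for single probe sets. The submitters' processing notes name RMA and the package oligo, without versions. Of 41345 probe sets, 23521 carried 1 symbol in the platform annotation, 1814 several and 16010 none; only the first were used. The brightest probe set per symbol was kept (22180 genes), and a gene was tested where 3 or more of the 12 arrays exceeded their median (13153). All 4 groups, 3 biological replicates each, entered 1 model in limma 3.58.1 (R 4.3.3) with 8 residual degrees of freedom. P-values are two-sided, adjusted by Benjamini-Hochberg over all tested genes, with a threshold of 0.05, over 7 comparisons and an F test. The number of arrays limits the precision. The fit was tested on simulated data with changes of 1 log2 unit or more and independent draws for each array. That test therefore does not cover smaller differences, such as those of the Hox genes. Figures used Python 3.11.15 and matplotlib 3.10.9.

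Members and lists were chosen with earlier results of these data known. Every member is named; array values are given for members that passed, for up to 3 with the smallest p in each direction of a comparison, for the brightest and dimmest of a cluster and for Hoxc9. In other lists, up to 2 genes in each direction were named by smallest p. Alternatives were other filters, scalings, variance models, array weights, a replicate block, the mean of probe sets, only the groups compared and leaving out arrays. The labels do not say that a replicate number is shared between groups.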

Additional observations from a re-analysis of the deposited data

How the results depend on the processing

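The count of Hox members called for all wound groups against uninjured vehicle was 2. Keeping only the groups compared repeated the main fit here, since this comparison uses all 4 groups. With the mean of probe sets the count was 2, but Hoxc9 and Hoxc10 have 1 probe set each, so their values were unchanged. It was also 2 with the replicate block, without the filter, with cyclic loess and with the trend and robust variance model. It was 0 with the strict filter, which tested only 5 members, 1 with median centring, where Hoxc10 had an adjusted p of 0.0517, 12 with array weights, which called 4175 of all 13153 genes, and 0 without the 3 arrays of lowest median. It lay between 0 and 2 when 1 array was left out. With array weights the counts were 14, 11 and 3 for wound vehicle, wound trimebutine and wound alprostadil against uninjured vehicle, 5 for wound trimebutine against wound vehicle and 14 in the F test, against 0 in each main fit; that setting called 4997, 2171, 562, 4034 and 5302 genes there. Leaving out 1 array gave 0 to 1 member for wound vehicle and for wound alprostadil against uninjured vehicle, namely Hoxc9 or Hoxc10, and 0 for the other comparisons of 2 groups. The count of members above the array median was 21 on at least 3 arrays and 9 on all 12. Hoxc9 in wound alprostadil minus wound vehicle, -0.01 in the main fit, was 0.05 with median centring and with cyclic loess, 0 with array weights, and between -0.08 and 0.08 when 1 array was left out, with 0.08 without wound alprostadil replicate 2 and 0.07 without wound vehicle replicate 3. The cause of these changes was not tested beyond the number of genes or arrays left. Of 18 pairs of arrays with the same replicate number, 11 correlated over 0.1 in their deviations (range -0.64 to 0.62). The 36 pairs with different numbers ranged from -0.57 to 0.58. For 9 of 12 arrays, the mean correlation over same-number pairs exceeded the mean over different-number pairs. Not every same-number pair passed 0.1 and the 2 ranges were close, so it is undecided whether the numbers pair the isolates. With the replicate block the counts were 2 for all wound groups against uninjured vehicle and 0 elsewhere.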

Other observations

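The high values of some members came from 1 or 2 arrays. Hoxd9, a gene of trunk and limb, read 6.93 on uninjured vehicle replicate 1 and 5.61 to 6.35 on the 9 wound arrays, and its other 2 uninjured arrays read 6.10 each. It exceeded the array median only on that array and was not tested. Hoxb9 read 8.09 on wound vehicle replicate 1 and 7.90 on uninjured vehicle replicate 3, and no more than 7.39 on the other 10 arrays. Hoxc5, a gene of the lower neck, read 6.25, 6.76 and 6.63 in wound trimebutine, against 6.13, 5.99 and 6.25 in wound vehicle.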
